A study of Mus musculus with 8 samples.

Results

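The NMDA receptor subunit genes are Grin1, Grin2a, Grin2b, Grin2c, Grin2d and Grin3a, 6 of the 25834 genes in a hippocampal RNA-seq table, chosen by gene symbol and not by their values. All 6 passed the filter on low counts, with which 16251 genes were tested. The libraries came from 4 control and 4 SAP97-cKO male mice, 1 hippocampal library per mouse. SAP97-cKO mice carried Nestin-cre+/- and SAP97fl/fl, so that Cre under the Nestin promoter removed part of the gene for SAP97 (Dlg1) from the neural lineage of the brain, neurons and glia alike. Controls were littermates that carried the Nes-cre+/- allele, the floxed SAP97 alleles or neither. No source used here gives the genotype of each control library or the age of the sequenced mice.

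An NMDA receptor is a glutamate-gated channel that lets calcium into the postsynaptic spine when glutamate and a co-agonist, glycine or D-serine, are bound and depolarization has removed magnesium from the pore. Every receptor holds the GluN1 subunit (Grin1), which binds the co-agonist, together with GluN2 subunits (Grin2a to Grin2d), which bind glutamate, or with GluN3 subunits (Grin3a, Grin3b), which bind glycine and lower calcium entry. In the hippocampus, GluN2A and GluN2B are the main GluN2 subunits of pyramidal cells and granule cells, and their cytoplasmic tails bind PDZ domains of the SAP97 family of scaffolds, which includes SAP97 itself.

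The coding ends of 5 of the subunit genes are shown because the PDZ domains of these scaffolds bind the last residues of GluN2 tails. Each sequence is the final 60 coding bases before the stop codon, read from GENCODE M21 transcripts of GRCm38, with the last 4 codons in capitals. All 6 genes lie on the minus strand. The sequences lie at chr6:135732101-135732160 for Grin2b, chr11:115249574-115249633 for Grin2c, chr7:45832783-45832842 for Grin2d and chr4:49665229-49665288 for Grin3a. Grin1 has 2 annotated coding ends, at chr2:25292063-25292122 (Grin1-208) and chr2:25292371-25292430 (Grin1-204), each shared by 4 transcripts.
Grin2b: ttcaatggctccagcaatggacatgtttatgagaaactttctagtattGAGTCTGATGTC
Grin2c: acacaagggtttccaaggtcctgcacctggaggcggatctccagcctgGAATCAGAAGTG
Grin2d: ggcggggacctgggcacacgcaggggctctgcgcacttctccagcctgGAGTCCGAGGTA
Grin1 (Grin1-208): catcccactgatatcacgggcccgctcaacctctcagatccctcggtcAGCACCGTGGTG
Grin1 (Grin1-204): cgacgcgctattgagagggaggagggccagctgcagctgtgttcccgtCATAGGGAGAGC
Grin3a: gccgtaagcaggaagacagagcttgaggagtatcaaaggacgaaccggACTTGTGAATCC
Over the 60 bases, Grin2d matched Grin2b and Grin2c at 28 positions each, and Grin2b matched Grin2c at 21. Of the last 12 bases, Grin2b and Grin2d shared 9, and each shared 8 with Grin2c. Grin3a matched these 3 GluN2 genes at 16 to 20 of the 60 positions and at 3 to 5 of the last 12. Grin1-204 matched the 3 GluN2 genes at 17 to 21 of the 60 positions and at 3 to 4 of the last 12. With Grin3a it matched at 21 and 5. Over 60 bases, Grin2b and Grin2c were thus no more alike than Grin1-204 and Grin2d. Over the last 12 bases, Grin2b and Grin2c shared 8, and Grin1-204 and Grin2d shared 4. The Grin1-208 end was not compared. The Grin2b end shown is that of Grin2b-201 (4446 coding bases). Another annotated end, in the shorter transcript Grin2b-205 (1011 coding bases), is not shown. The counts below are of whole genes and do not separate the coding ends of Grin1 or those of Grin2b.

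Each library held 37388177 to 37426572 counts, since reads were resampled by the authors to equal depth before counting, and TMM scaling factors were 0.964 to 1.03. In accordance with the labels, Dlg1 counted over all exons was lower in every SAP97-cKO library, at 2393 ± 470 normalized counts (SD, n = 4) against 4338 ± 336 (SD, n = 4) in controls. Markers of dentate granule cells (6 of 6), CA1 (5 of 5) and CA3 (6 of 6) were detected in every library. A pair of control libraries and a SAP97-cKO library stood apart in ways that touch the subunit genes. Control 4 had lower counts of genes with long transcripts, control 3 had the highest summed level of cerebellar granule cell markers (407 CPM, the TMM-scaled counts relative to library size, against 68.9 to 109 in the other libraries), and cKO 2 had the lowest summed level of dentate granule markers (448 CPM against 563 to 753). In bulk tissue, fewer cells of a type and less RNA per cell cannot be told apart.

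None of the 6 subunit genes passed the threshold between genotypes, and all 6 had a log2 fold change (SAP97-cKO over control) above 0. The edgeR quasi-likelihood test, with Benjamini-Hochberg adjustment over all 16251 genes and the study's threshold of an FDR under 0.25, called 0 of the 6, while 0.295% of all genes were called in either direction and 0.0123% were called higher. At an unadjusted p under 0.05, 1 of the 6 was higher (Grin1), beside 4.73% of all genes. DESeq2 called Grin1 and no other subunit gene, beside 2.91% of genes called higher, and limma-voom called none of the 6, beside 0.308% of all genes in either direction. The median log2 fold change of the 6 genes was 0.28, against -0.012 over all genes tested, where 47.2% of genes had a value above 0. The differences of Grin2a and Grin2b were over 1.5 times smaller without control 4, and their values in that fit are given after those of the single genes.

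Grin1 encodes GluN1, the subunit that every NMDA receptor holds. Its normalized counts (counts scaled by TMM) were 15230, 14214, 13047 and 10866 in controls 1 to 4 and 16016, 14416, 16294 and 18018 in cKO 1 to 4. Every SAP97-cKO library was above the control mean, and 3 of 4 were above the highest control, but the groups overlapped between control 1 and cKO 2. Controls averaged 13339 ± 1875 counts (SD, n = 4) and the SAP97-cKO mice 16186 ± 1475 counts (SD, n = 4). The log2 fold change was 0.28 (SE 0.11, 95% interval 0.04 to 0.52), or 1.21-fold, with an adjusted p of 0.386 (edgeR). An exact two-sided permutation test of the 8 log2 counts gave p = 0.0571, where the smallest p that 4 mice against 4 allow is 0.0286.

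Grin2a encodes GluN2A, the GluN2 subunit of fast-closing receptors that gains ground as the forebrain matures. Its normalized counts were 13364, 11885, 11583 and 6100 in controls 1 to 4 and 16231, 9619, 12761 and 14813 in cKO 1 to 4. Control 4 was the lowest library and cKO 2 the second lowest, and the groups overlapped. The log2 fold change was 0.32 (SE 0.23, 95% interval -0.19 to 0.82, edgeR adjusted p = 0.583), an interval that runs from 0.876-fold to 1.77-fold.

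Grin2b encodes GluN2B, whose receptors close more slowly and predominate early in development. On average it had the highest counts of the 6 genes, though in control 4 it was below Grin1. They were 26101, 22053, 20583 and 9146 in controls 1 to 4 and 30786, 22875, 24862 and 29875 in cKO 1 to 4. Control 4 had 40.1% of the geometric mean of the other 3 controls, and the groups overlapped because control 1 was above cKO 2 and cKO 3. The group means were 19471 ± 7268 (SD, n = 4) and 27100 ± 3837 (SD, n = 4). The log2 fold change was the largest of the 6 genes, 0.48 (SE 0.26, 95% interval -0.10 to 1.05, edgeR adjusted p = 0.478), an interval from 0.935-fold to 2.07-fold.

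Grin2c encodes GluN2C, known best from cerebellar granule cells and found in the forebrain mainly in glia and some interneurons. Its normalized counts were 1654, 1766, 2100 and 1793 in controls 1 to 4 and 2257, 1754, 1959 and 1906 in cKO 1 to 4. The groups overlapped over most of their range, and the highest control was control 3, the library with the most cerebellar granule cell marker counts. In that library the marker Gabra6, a GABA receptor subunit of cerebellar granule cells, had 1696 normalized counts, against 59.8 to 320.2 in the other 7. The log2 fold change was 0.11 (SE 0.10, 95% interval -0.11 to 0.32, edgeR adjusted p = 0.651), the smallest of the 6 genes. Without control 3 it was 0.19 (adjusted p = 0.615, edgeR), and with the mean log2 CPM of the cerebellar markers as a covariate it was 0.15 (adjusted p = 0.656, edgeR). It was smaller without cKO 1 (0.04) and without control 1 (0.06).

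Grin2d encodes GluN2D, a subunit of hippocampal interneurons in the adult. It had the lowest counts of the 6 genes, 379, 341, 401 and 363 in controls 1 to 4 and 375, 420, 448 and 475 in cKO 1 to 4. In 3 of 4 SAP97-cKO libraries it was above the highest control, and cKO 1 lay among the controls. The log2 fold change was 0.21 (SE 0.10, 95% interval -0.02 to 0.44, edgeR adjusted p = 0.445). Summed interneuron markers were lowest in cKO 1 (1090 CPM, against 1219 to 1343 in the other libraries), where Grin2d was above controls 2 and 4. Control 4, with 363 counts of Grin2d, had 1318 CPM of these markers. Their part in the value of Grin2d was not tested.

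Grin3a encodes GluN3A, which restrains calcium entry and spine maturation. Its normalized counts were 1895, 1594, 1519 and 1521 in controls 1 to 4 and 1495, 2249, 2018 and 2135 in cKO 1 to 4. A wide gap separated 3 SAP97-cKO libraries from controls 2 to 4, while cKO 1 was the lowest of the 8 libraries and control 1 the highest control. The log2 fold change was 0.27 (SE 0.13, 95% interval -0.004 to 0.553, edgeR adjusted p = 0.427). Without cKO 1 it was 0.39 (SE 0.09, adjusted p = 0.189, edgeR), past the threshold, in a fit that called 1.58% of all genes higher. Without control 1 it was 0.35 (adjusted p = 0.239, edgeR) and Grin1 was 0.35 (adjusted p = 0.208, edgeR), in a fit that called 4.34% of all genes higher.

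**Figure D1:**
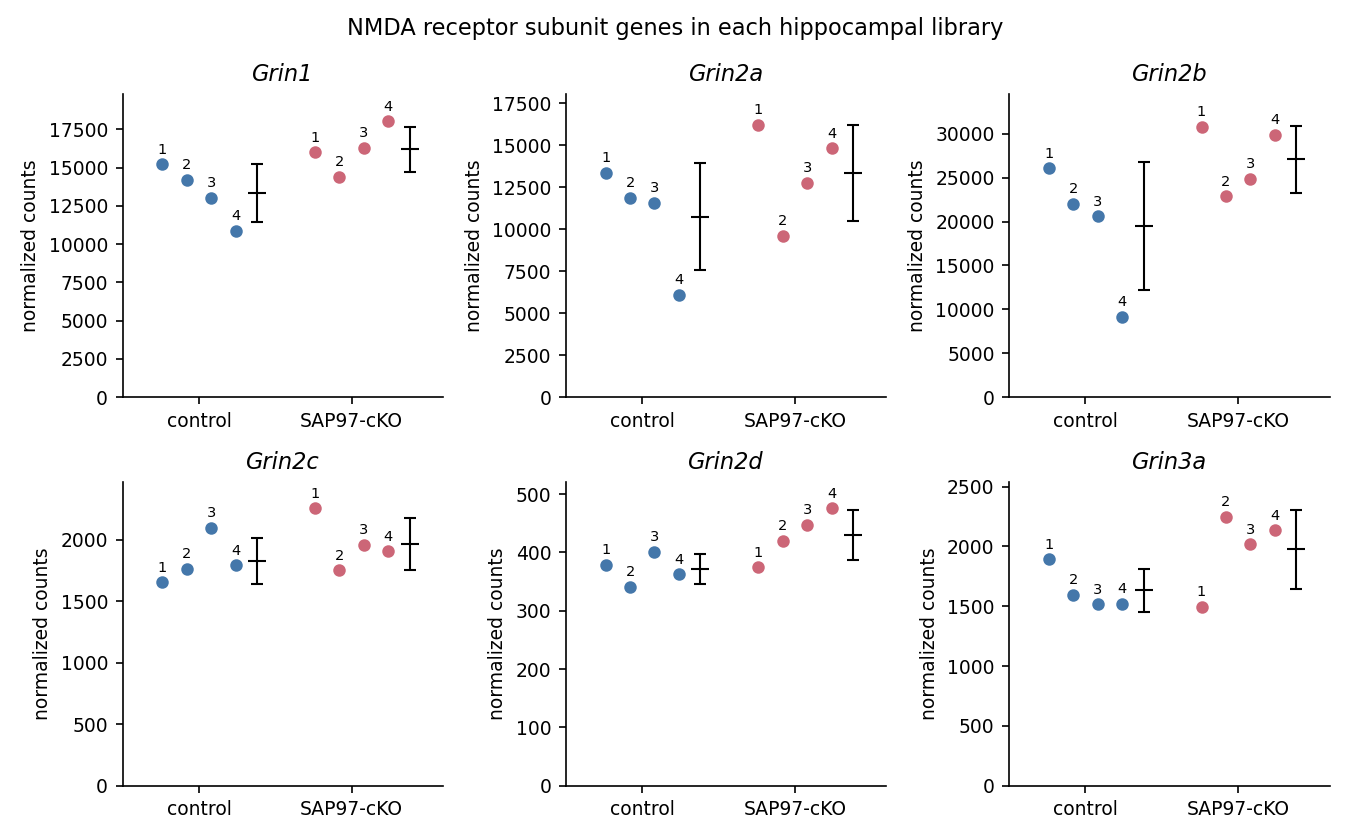
Normalized counts of the 6 NMDA receptor subunit genes in each library, with the mean and SD of 4 mice per group; each panel has its own axis from 0. Control 4 lies far below the other controls for Grin2a (6100 counts) and Grin2b (9146 counts) and among them for Grin2c, Grin2d and Grin3a.

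Grin3b, the other GluN3 gene, was at the edge of detection and was not tested. Its counts were 10, 5, 25 and 7 in controls 1 to 4 and 7, 2, 8 and 3 in cKO 1 to 4, with the highest value in control 3. Grin1os, an antisense gene that shares 1307 exonic bases with Grin1, held 22 to 43 counts per library. Gm26653, which shares 49 exonic bases with Grin2b, held 9 to 32. Other annotated genes on the opposite strand share 643 exonic bases with Grin2d (Gm45441), 143 and 86 with Grin2b (Gm14329, Gm22892) and 91 with Grin2c (Gm25837), and were not analysed here. No source used here says whether reads were counted by strand, so reads of these pairs cannot be told apart.

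**Figure D2:**
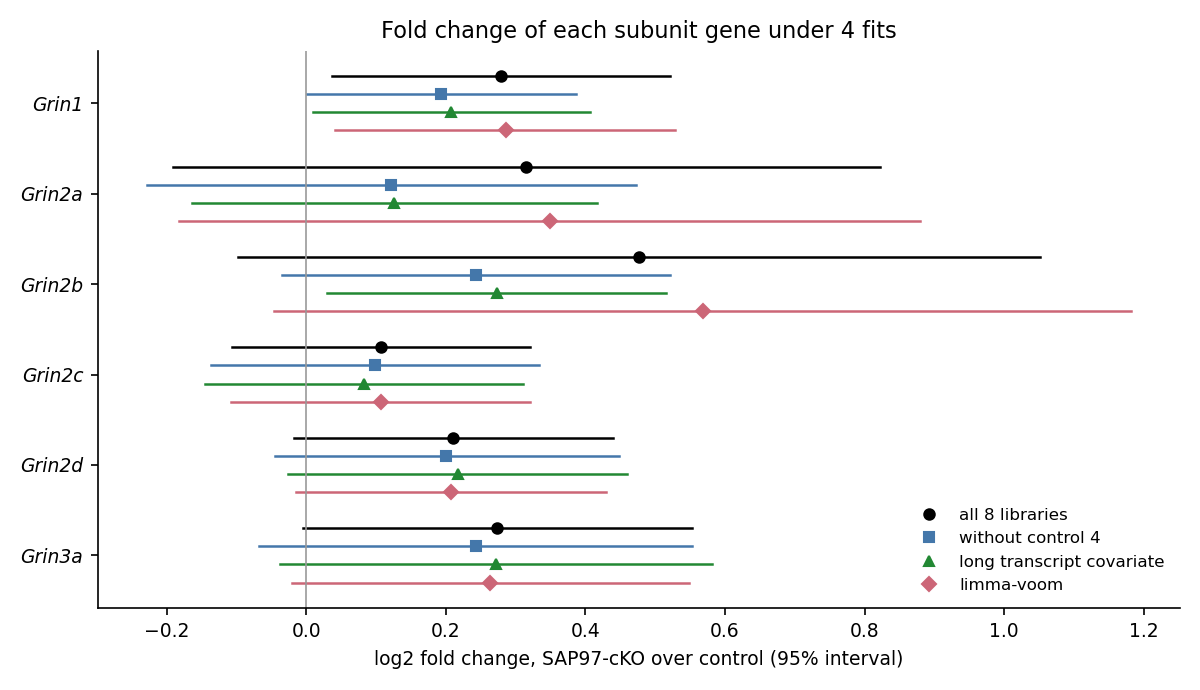
Log2 fold change (SAP97-cKO over control, x axis) of each subunit gene with its 95% interval in 4 fits: edgeR with all 8 libraries (circles), edgeR without control 4 (squares), edgeR with a score of long transcripts as a covariate (triangles) and limma-voom (diamonds). The value of Grin2b is 0.48 with all libraries and 0.24 without control 4, and no subunit gene passes the threshold in these fits.

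The subunit genes differed in how far control 4 lay from the other controls. On the log2 scale, control 4 minus the mean of the other 3 controls was -1.32 for Grin2b, -1.01 for Grin2a and -0.38 for Grin1. The same difference was -0.13 for Grin3a, -0.04 for Grin2d and -0.03 for Grin2c, so the 3 genes with fewer counts were near the other controls. The genes with the 2 lowest values are also those with the most annotated exonic sequence, 24.8 kb for Grin2b and 17.9 kb for Grin2a. The others have 12.3 kb (Grin3a), 9.7 kb (Grin1), 6.7 kb (Grin2d) and 5.0 kb (Grin2c). Over other genes with a mean of at least 1 CPM, the median difference of control 4 fell from 0.25 for 1681 genes under 2 kb to 0.10, -0.06 and -0.23 for 2 to 4, 4 to 8 and 8 to 16 kb, and to -0.48 for 312 genes of 16 kb or more. Grin2b and Grin2a were lower still than that class: 3 of its genes (0.962%) were at or below Grin2b and 13 (4.17%) at or below Grin2a.

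**Figure D3:**
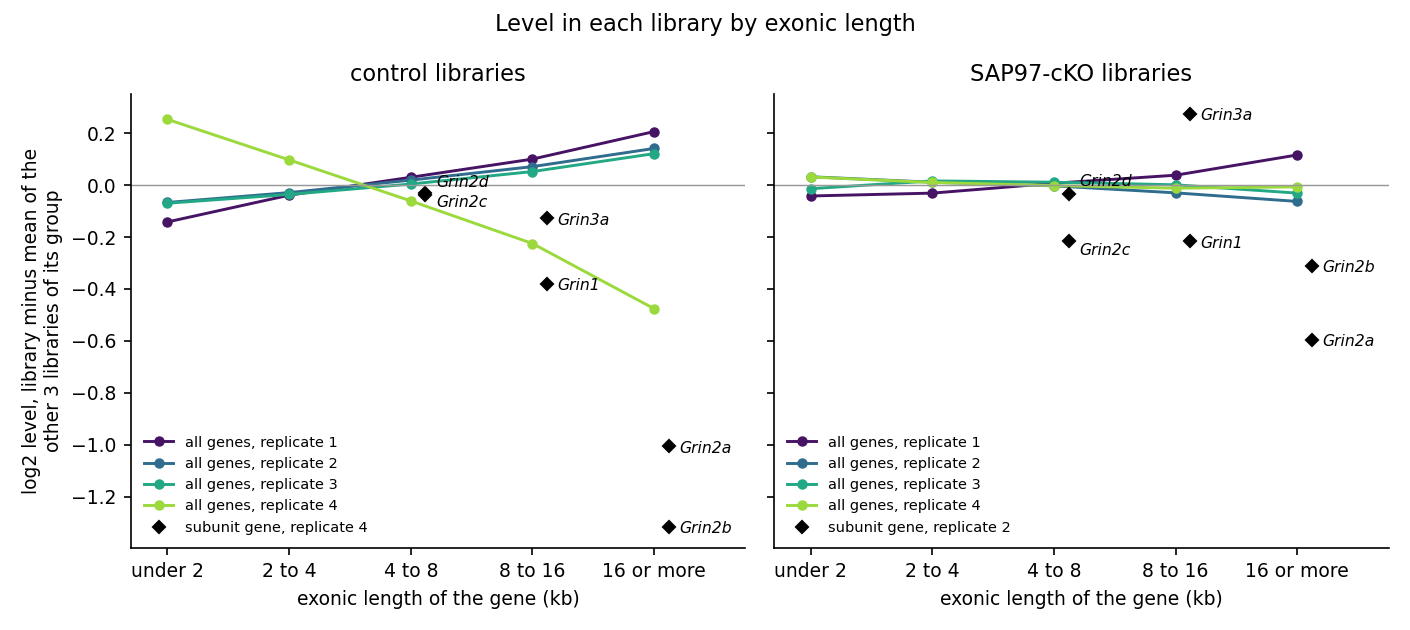
Log2 level of each library minus the mean of the other 3 libraries of its group (y axis) by annotated exonic length of the gene in kb (x axis, 5 classes); lines join the medians of other genes for each of the 4 controls (left) and 4 SAP97-cKO libraries (right), and diamonds are the subunit genes in control 4 (left) and cKO 2 (right). The medians of control 4 run from 0.25 to -0.48, and Grin2b lies at -1.32 there.

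In the longest class, the median of the other libraries was 0.21, 0.14 and 0.12 in controls 1 to 3 and between -0.06 and 0.12 in the SAP97-cKO libraries. In cKO 2, Grin2a was further below its group than the longer Grin2b was. The differences of cKO 2 from the other 3 SAP97-cKO libraries were -0.60 for Grin2a, -0.31 for Grin2b, -0.22 for Grin1, -0.21 for Grin2c, -0.04 for Grin2d and 0.27 for Grin3a. The dentate granule transcription factor Prox1 had 2435 normalized counts in cKO 2 and 4757 to 6466 in the other SAP97-cKO libraries. Of the other dentate markers, C1ql2, Dsp, Pdzd2 and Stxbp6 were also lowest of the SAP97-cKO libraries in cKO 2. Calb1 was not, with 6205 normalized counts in cKO 2, above cKO 1 (5680) and cKO 4 (6039). With the mean log2 CPM of the dentate markers as a covariate, the log2 fold changes were 0.54 for Grin2b (adjusted p = 0.352, edgeR), 0.36 for Grin2a (adjusted p = 0.360, edgeR) and 0.30 for Grin1 (adjusted p = 0.304, edgeR).

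Without control 4, where edgeR called 0.195% of all genes, the log2 fold change was 0.24 (SE 0.12) for Grin2b, 0.12 (SE 0.16) for Grin2a and 0.19 (SE 0.09) for Grin1, with edgeR adjusted p-values of 0.460, 0.775 and 0.417. Those of Grin2c (0.10), Grin2d (0.20) and Grin3a (0.24) moved little. With the mean log2 CPM of 318 genes of 16 kb or more as a covariate and all 8 libraries, a fit that called 0.271% of all genes, the values were 0.27 (SE 0.11) for Grin2b, 0.13 (SE 0.13) for Grin2a and 0.21 (SE 0.09) for Grin1, with edgeR adjusted p-values of 0.337, 0.691 and 0.360. With all libraries, the median log2 fold change was -0.09 for other genes under 2 kb and 0.13 for those of 16 kb or more. Without control 4 these medians were -0.011 and 0.03.

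Levels of different genes were compared as CPM per kb of annotated exonic sequence. Grin1 was highest at 40.7 ± 6.01 (SD, n = 8 libraries), followed by Grin2b at 25.1 ± 7.27, Grin2a at 18.0 ± 4.68, Grin2c at 10.1 ± 1.07, Grin3a at 3.93 ± 0.670 and Grin2d at 1.61 ± 0.182. Each gene was above the next in this order in 8 of 8 libraries, except that Grin2a was above Grin2c in 7 of 8, the exception being control 4. Per kb of the longest annotated transcript the order of the means was the same. There Grin2b was above Grin2a in 7 of 8 libraries, the exception being control 4 (10.2 against 11.2), and Grin2a was above Grin2c in 8 of 8. Per kb of coding sequence, Grin2b (140.1) and Grin1 (137) changed places and were above one another in 6 and 2 libraries, and Grin3a (14.2) and Grin2c (13.7) in 4 and 4, so the order within these pairs depended on the length used.

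**Figure D4:**
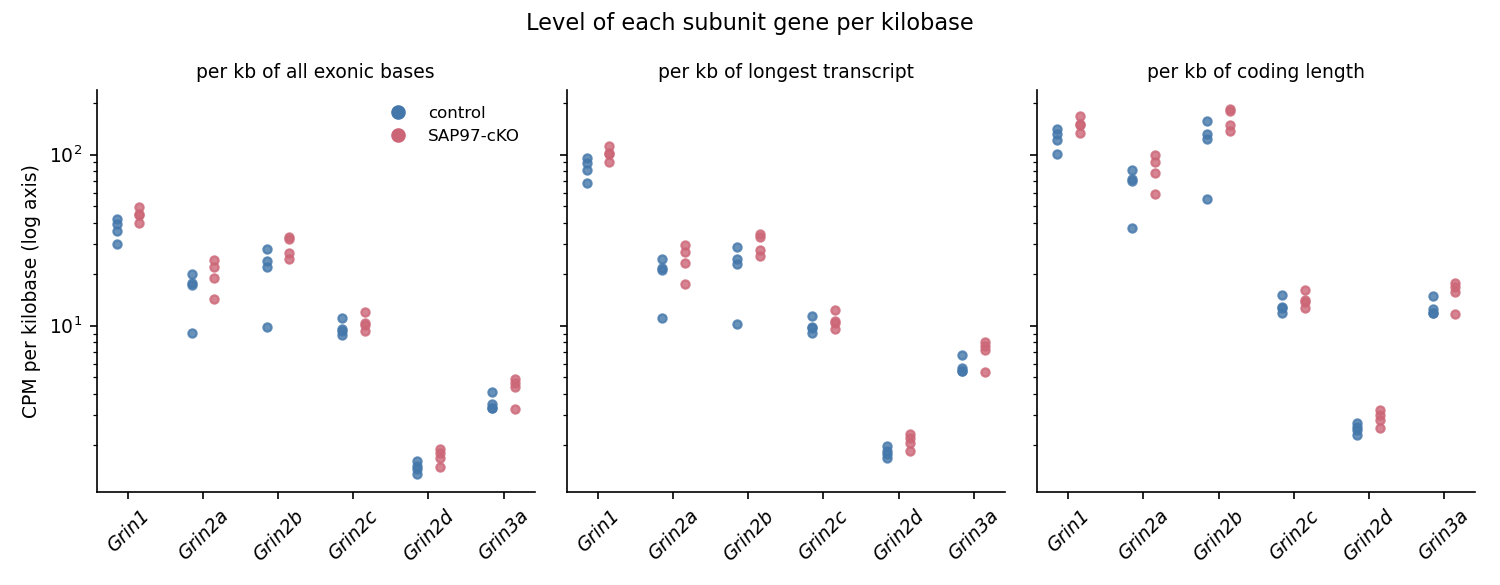
Level of each subunit gene in each library (points, by genotype) as CPM per kb on a log axis, per kb of all exonic bases, of the longest transcript and of coding sequence. Grin1 is highest and Grin2d lowest in every library in the left panel, and Grin1 and Grin2b lie together in the right panel.

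Of the summed GluN2 level per kb of exonic sequence, Grin2b made up 42.3% ± 6.65 (SD, n = 4) in the control group and 47.7% ± 1.46 (SD, n = 4) in the SAP97-cKO group. Grin2a made up 32.9% ± 1.73 and 32.3% ± 2.43, Grin2c 21.6% ± 7.31 and 17.2% ± 1.46, and Grin2d 3.30% ± 1.07 and 2.87% ± 0.537. Control 4 had the lowest Grin2b share (32.9%) and the highest Grin2c share (31.8%) of the controls. These shares sum to the whole, so that a lower share of a gene raises those of the others.

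**Figure D5:**
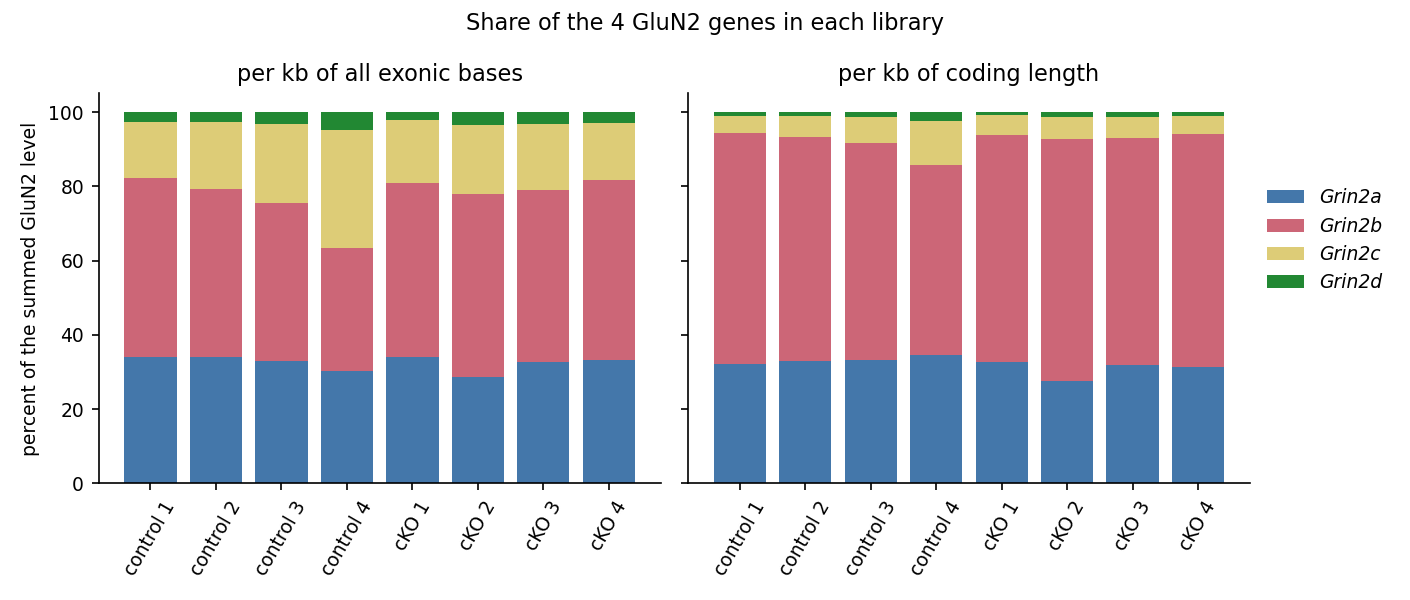
Share of Grin2a, Grin2b, Grin2c and Grin2d in their summed level, in percent, as a stacked bar for each library, per kb of all exonic bases (left) and of coding length (right). In the left panel the Grin2b share is 46.2% to 49.3% in the SAP97-cKO libraries and 32.9% to 48.2% in the controls.

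The ratio of Grin2a to Grin2b counts, which does not depend on library scaling, was 0.512, 0.539, 0.563 and 0.667 in controls 1 to 4 and 0.527, 0.421, 0.513 and 0.496 in cKO 1 to 4. The 2 lowest ratios and 3 of the 4 lowest were in SAP97-cKO libraries, while control 1 lay within their range. The means were 0.570 ± 0.0678 (SD, n = 4) and 0.489 ± 0.0476 (SD, n = 4), a difference of -0.22 in mean log2 ratio (exact two-sided permutation test, p = 0.0857, smallest possible 0.0286). The highest ratio was that of control 4, and without that library the difference was -0.14 (exact permutation test, p = 0.200).

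Across the 8 libraries, after each group's mean was subtracted, log2 CPM of Grin2a and Grin2b had a Pearson r of 0.95, and Grin1 had an r of 0.90 with each. Grin2c and Grin3a had an r of -0.85 with each other, Grin2d and Grin3a 0.58, and the remaining pairs lay between -0.14 and 0.31. These values describe 8 libraries, control 4 among them, and were not tested. Among 14065 genes with a mean of at least 1 CPM, the 2 genes with the highest r to Grin2b were Htt (r = 0.998), the huntingtin gene with 24.4 kb of exonic sequence, and Atrn (r = 0.996) with 13.2 kb. Those nearest to Grin2a were Gltscr1 (0.998) and Frrs1l (0.997), an AMPA receptor assembly factor, and those nearest to Grin1 were Smpd3 and Zc3h12b (0.989 each). Nearest to Grin2c were Pm20d1 (0.989) and Psd2 (0.983), to Grin2d Gm5499 (0.978) and Ssbp4 (0.972), and to Grin3a Rusc1 (0.995) and Dpysl3 (0.989).

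Of 20 genes for scaffolds and trafficking of NMDA receptors, 1 was called lower (Dlg1 itself, where 0.283% of all genes were called lower) and 0 higher, with 13 log2 fold changes above 0 and a median of 0.046. Dlg4, which encodes PSD-95, the most abundant scaffold at these synapses, was above every control in every SAP97-cKO library, at 30967 ± 1626 normalized counts (SD, n = 4) against 26774 ± 1361 (SD, n = 4). Its log2 fold change was 0.21 (SE 0.07, edgeR adjusted p = 0.358). In this list, 3 genes were higher and 1 lower without overlap between the groups, where 2.78% of all genes were higher and 6.25% were higher or lower without overlap. The other scaffolds related to SAP97 had log2 fold changes of 0.19 (SE 0.07) for Dlg2 (PSD-93) and 0.15 (SE 0.09) for Dlg3 (SAP102), with edgeR adjusted p-values of 0.376 and 0.518. Neto1, an auxiliary protein, had 0.25 (SE 0.15), and Ephb2, a receptor tyrosine kinase that gathers NMDA receptors, -0.008 (SE 0.13).

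Of 21 genes for signalling at the receptor, 0 were called (0.295% of all genes), 19 had a log2 fold change above 0 (47.2% of all genes) and 5 were higher at an unadjusted p under 0.05 (4.73% of all genes), with a median of 0.11. The smallest p of this list was that of Cdk5r1, which encodes the p35 activator of the kinase Cdk5. Normalized counts of Cdk5r1 averaged 10005 ± 486 (SD, n = 4) in the control group and 11846 ± 752 (SD, n = 4) in the SAP97-cKO group, without overlap. Its log2 fold change was 0.24 (SE 0.07, edgeR adjusted p = 0.331). Camk2a, the kinase that binds GluN2B after calcium entry, had a log2 fold change of 0.28 (SE 0.11, edgeR adjusted p = 0.374), Camk2b 0.16 (SE 0.13) and Fyn, a tyrosine kinase that acts on GluN2 tails, 0.07 (SE 0.05).

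Of 9 genes for supply of the co-agonists glycine and D-serine, 0 were called (0.295% of all genes) and 7 had a log2 fold change below 0, with a median of -0.13. At an unadjusted p under 0.05, 2 were higher and 2 lower, where 4.73% of all genes were higher and 7.01% lower. Srr, which makes D-serine, had 2464 to 2743 normalized counts in controls and 2792 to 2953 in SAP97-cKO libraries, without overlap. Its log2 fold change was 0.16 (SE 0.06, edgeR adjusted p = 0.371), while that of Slc6a9, the glycine transporter GlyT1, was -0.16 (SE 0.11, edgeR adjusted p = 0.570). Grina, which shares the receptor's name but encodes no subunit of it, had a log2 fold change of 0.09 (SE 0.08). Of 51 tested genes of these partner lists, DESeq2 called 14, 11 of them higher. Over all genes it called 6.75% in either direction and 2.91% higher.

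Marker lists were read in the same libraries. Of 12 meningeal fibroblast markers, 6 were called lower, where 0.283% of all genes were called lower, and all 12 had a log2 fold change below 0. This list was chosen with earlier results of these data known. The called markers are all among the genes that the paper lists as changed in the same libraries. The comparison with all genes is therefore not an independent test of these markers. Their summed levels were 296 to 523 CPM in controls and 172 to 279 CPM in SAP97-cKO libraries. Oligodendrocyte markers had 8 of 8 log2 fold changes below 0 and 0 called (5564 to 8943 CPM against 4344 to 7848 CPM), and choroid plexus markers 10 of 10 below 0 and 0 called (176 to 6893 CPM against 102 to 2365 CPM). CA1 markers had 5 of 5 above 0 and 0 called (588 to 751 CPM against 709 to 893 CPM), and neuron markers 6 of 8 above 0 and 0 called (7074 to 7910 CPM against 7168 to 8305 CPM), with control 4 the lowest library by summed level. The neuron markers did not all follow the sum. Rbfox3, Snap25, Syt1, Nefm and Eno2 were lowest of the controls in control 4. Stmn2 (15513 normalized counts) and Tubb3 (10935) were highest of the controls there, against at most 14611 and 9785 in the other controls. No marker of these lists was at 0 in any library. With neuron markers as a covariate, the log2 fold changes were 0.38 for Grin2b, 0.27 for Grin2a, 0.19 for Grin1, 0.19 for Grin2c, 0.12 for Grin2d and 0.08 for Grin3a, none past the threshold in a fit that called 0.0% of all genes. With meningeal markers as a covariate, they were 0.44 for Grin3a, 0.34 for Grin2b, 0.18 for Grin1, 0.02 for Grin2d, -0.02 for Grin2a and -0.14 for Grin2c, with standard errors of 0.19 to 0.57. None was past the threshold in that fit, which called 0.0% of all genes. The mean log2 CPM of the meningeal markers was 3.81 to 4.47 in controls and 2.68 to 3.51 in SAP97-cKO libraries. These ranges do not overlap, so that fit cannot separate the markers from genotype. With choroid plexus markers as a covariate, they were 0.61 for Grin2b, 0.39 for Grin2a, 0.29 for Grin1, 0.28 for Grin3a, 0.19 for Grin2d and 0.11 for Grin2c. The part of the oligodendrocyte and CA1 markers in the subunit values was not tested.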

How the data were processed

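The 8 hippocampal RNA-seq libraries (4 per genotype, all male) were grouped as labelled. Per the labels and the methods, the authors used STAR 2.5.3a and the mm10 genome (GRCm38.p5), removed ribosomal and mitochondrial reads, resampled each library to a common depth with PORT and deposited whole-number counts per Ensembl gene. Columns of their own limma-voom test (a log2 fold change, p-values and BH q-values), also deposited, were not used.

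Genes were kept with filterByExpr (minimum count 10, minimum total 15), which removed 9583 genes. Counts were scaled by TMM and tested in R 4.3.3 by edgeR 4.0.16 (glmQLFit and glmQLFTest), with p-values adjusted by the Benjamini-Hochberg method over all genes and an FDR under 0.25. The SE is the log2 fold change divided by the square root of F, as a size. The fit was checked on simulated counts. Alternatives used limma 3.58.1, DESeq2 1.42.0, other scaling and filters, covariates, a replicate block and each library left out. No 2 libraries agreed within counting error (chi-square divided by genes, 9.08 to 67.2), so none was taken as a repeat.

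Gene lengths and positions are from GENCODE M21. The labels do not say that the replicate numbers pair mice, so they were not taken to do so. The deviations of same-numbered libraries had correlations of -0.105 to 0.301 across genes. Those of a control and a SAP97-cKO library with different numbers had -0.497 to 0.361. These overlapping ranges do not settle whether mice were paired. Named genes were the 6 subunits, Dlg1, genes of the partner lists past the threshold or with the smallest p of a list, a fixed set of partners, and the 2 genes most like each subunit; Gabra6 and Prox1 were named after their values were seen. The members and lists were chosen with earlier results of these data known. The coding end of Grin2a is not reported here.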

Additional observations from a re-analysis of the deposited data

Results flagged for a closer look

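In 8 of 128 groups of 4 libraries, a library lay further from the others than Dixon's 95% critical value allows, where chance gives about 1 in 20. The groups were the controls and the SAP97-cKO libraries for the subunit genes, the GluN2 shares, the Grin2a to Grin2b ratio, all tested partner genes, Gabra6 and Prox1, and the last 2 had been singled out for their values. In control 4, Ephb2, which gathers NMDA receptors at the synapse, had 1029 normalized counts (1458 to 1503 in the other controls), and Nedd4, a ubiquitin ligase, had 18301 (23215 to 24031). Control 4 was high for Rack1, a scaffold that binds Fyn and GluN2B, at 9568 (6462 to 6873), for the kinase Cdk5 at 3556 (3027 to 3072) and for Csnk2b, a subunit of casein kinase 2, at 2995 (2699 to 2745). In control 3, Dao had 187 normalized counts (20.9 to 43.7 in the other controls) and Gabra6 had 1696 (59.8 to 320.2). In cKO 2, Rasgrf1, a Ras exchange factor that binds GluN2B, had 14828 (19982 to 20860 in the other SAP97-cKO libraries). None of the subunit genes, shares or ratios met this criterion.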

How the results depend on the processing

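Of 132 log2 fold changes of subunit genes under 22 alternatives, 130 were above 0 and 126 kept both their direction and their side of the threshold. The alternatives with the long-transcript, cerebellar and dentate covariates and without both control 3 and control 4 were added after seeing the data. DESeq2 called 1 subunit gene, Grin1 (0.28), and 14 partner genes, against 0 and 1 with edgeR. Over all genes, DESeq2 called 6.75% and edgeR 0.295%. With the meningeal covariate, in a fit that called 0.0% of all genes, Grin2a was -0.022 and Grin2c -0.141. Dlg1 was -0.409 there, against -0.858 without the covariate. The covariate did not overlap between the genotypes, so that fit cannot separate it from genotype. Dlg1 lost its call in that fit, with the neuron covariate and at an FDR of 0.05. It also lost its call without control 2, without cKO 3, without cKO 4 and without both control 3 and control 4. The partner count was 0 at an FDR of 0.05 and with the meningeal or the neuron covariate, where 0.0% of all genes were called. It was also 0 without both control 3 and control 4, where 0.0359% of all genes were called. With 1 library left out, subunit calls ranged from 0 to 2 and partner calls from 0 to 13, and the log2 fold changes from 0.193 to 0.349 (Grin1), 0.122 to 0.445 (Grin2a), 0.243 to 0.651 (Grin2b), 0.042 to 0.193 (Grin2c), 0.163 to 0.278 (Grin2d) and 0.206 to 0.394 (Grin3a). The partner calls were 13 without control 1 (10.2% of all genes called) and 5 without cKO 1 (4.32% of all genes). They were 0 without control 2, cKO 3 or cKO 4, in fits that called 0.0% of all genes. The Grin2a to Grin2b log2 ratio difference ranged from -0.268 (without control 1) to -0.141 (without control 4), with exact permutation p-values from 0.0286 to 0.200. The replicate block, which tests numbers that were not shown to pair mice, called 0 subunit genes and 256 genes in all, against 48 without it. Grin1 was 0.285 and Grin2b 0.555 with the block. Dlg1 had an edgeR adjusted p of 0.0219 with the block and 0.143 without it. Calls over all genes ranged from 0 to 1675 across the alternatives, with 1033 by DESeq2 and 1675 without control 1. Per kb of the longest transcript the Grin2a share of the GluN2 total was 36.3%, and per kb of coding sequence the shares were 60.2% for Grin2b, 6.43% for Grin2c and 1.27% for Grin2d, against 32.6%, 44.97%, 19.4% and 3.09% per kb of exonic sequence. With 1 library left out these shares ranged from 32.4% to 33.1% (Grin2a), 44.4% to 46.7% (Grin2b), 17.6% to 20.0% (Grin2c) and 2.83% to 3.22% (Grin2d). The cause of these changes was not tested. With 4 mice per group, the 95% interval of Grin2b spans 0.935-fold to 2.07-fold, and values across it were not told apart.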

Other observations

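The genes of serine synthesis, whose product is the precursor of both co-agonists, had their highest values in control 4, the library in which Grin2a and Grin2b were lowest. They were singled out after their values were seen. Psat1 had 7392 normalized counts in control 4 and 4187 to 5793 in the other 7 libraries. Phgdh had 4086 in control 4 and 2665 to 3230 elsewhere, and Psph had 990.0 in control 4 and 667 to 783 elsewhere. The summed markers of astrocytes (3674 CPM), oligodendrocytes (8943 CPM), oligodendrocyte precursors (372 CPM) and microglia (461 CPM) were also highest in control 4, as was the median of genes under 2 kb, and their part in these values was not tested. Dao, which degrades D-serine and is a gene of cerebellar astrocytes, had 187 normalized counts in control 3 and 13.5 to 43.7 in the other 7 libraries.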
